A study of Homo sapiens with 6 samples.

Results

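SOX4, SOX11 and SOX12 form the SOXC group of transcription factors, and their transcripts were followed in the human myeloma cell line KMS27 with and without overexpressed TAZ. The members were found by gene symbol in the authors' deposited table, which pairs transcripts with genes. They are 3 of 63677 genes and have 5 of 215170 transcripts. The set was chosen by the level of SOX4, which was known to be higher with HA-TAZ in these libraries, and SOX11 and SOX12 were added as its relatives. The values of all 3 genes in this contrast are therefore described and not tested.

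Total RNA was sequenced from 3 libraries of wild type KMS27 cells and 3 libraries of KMS27 cells with HA-TAZ. KMS27 is a cell line grown from a plasma cell cancer. TAZ, the product of WWTR1, is a coactivator held back by the Hippo kinases, and here it carries the HA epitope tag. The expression construct, its promoter and whether the HA-TAZ cells are 1 clone are not given in the sources used here, and the titles of the wild type samples also carry the letters HA. Nothing says that the 3 libraries of a group came from separate cultures, so p-values measure the spread between these libraries, which may be technical. The columns named scr in the table of values were taken as the wild type libraries because no other columns were left, and they are called control a to c. RNA was taken from whole cultures, so fewer cells with a transcript and less of it per cell cannot be told apart.

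SOX proteins bind the minor groove of DNA through an HMG box and bend it, and they usually act together with a partner factor at the same site. The SOXC members share a closely related HMG box and a transactivation domain at the C-terminus, and SOX12 is the weakest activator of the group. SOX4 is required for early B cell development and is widely expressed in cancers, where TGF-beta signalling is one of its known inputs. SOX11 is silent in normal B cells and is a diagnostic marker of mantle cell lymphoma. TAZ has no DNA-binding domain and reaches DNA mainly through TEAD factors.

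All 3 genes have a single exon in GENCODE release 29 on GRCh38. SOX4 (ENSG00000124766) lies at chr6:21592768-21598619, SOX11 (ENSG00000176887) at chr2:5692667-5701385 and SOX12 (ENSG00000177732) at chr20:325595-330224, each on the plus strand. The submitters' processing notes name GRCh37 for the files, so these positions describe the genes and were not used to read the values. The coding sequences, stop codon included, have 1425, 1326 and 948 bases in SOX4, SOX11 and SOX12, and 70.5%, 68.1% and 73.0% of their bases are G or C.

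Because the members are related, the stretches they share decide whether reads can be told apart. The longest identical run of each pair is given 5′ to 3′ as GENCODE release 29 gives it, since such a run is where a read could be given to either gene. All 3 runs lie in the coding sequence of the HMG box.
SOX4 and SOX11: gacatgcacaacgccgagatctccaag
SOX4 and SOX12: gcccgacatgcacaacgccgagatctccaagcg
SOX11 and SOX12: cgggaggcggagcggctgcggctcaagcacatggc
The runs have 27, 33 and 35 bases. The first lies at chr6:21594781-21594807 in SOX4 (codons 83 to 91) and at codons 73 to 81 of SOX11. The second covers codons 81 to 92 of SOX4 and 62 to 73 of SOX12, and the third codons 100 to 111 of SOX11 and 91 to 102 of SOX12. Counted in words of 31 bases, SOX4 shared 0 with SOX11 and 3 with SOX12 out of 5822 of its own, and SOX11 shared 5 of its 8688 with SOX12. Nearly all words of each transcript were thus absent from the other members.

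TAZ works through TEAD factors, so the 250 bases before each RefSeq gene start (GRCh38.p14) were searched on both strands for the TEAD core GGAATG. No window was at hand for SOX11, so of the members only SOX4 and SOX12 were searched. The window of SOX4 held 1 match, whose core starts 178 bases before the RefSeq start. The stretch printed around it lies at chr6:21593561-21593590 on the plus strand. The capitals mark the core.
SOX4 window: gctctgtaaattGGAATGaggtcagatttg
GENCODE release 29 starts SOX4 further upstream than RefSeq, so this stretch is 5 prime untranslated sequence in that annotation. The SOX12 window held no match, and 11.9% of 35116 windows of this length held at least 1. The CCAAT box (CCAAT) matched 4 times in the SOX4 window and 1 time in that of SOX12, against 32.0% of windows with a match. One of the 4 CCAAT matches overlaps the TEAD core. The SOX cores ACAAAG (13.7% of windows) and ACAAT (24.6%) and the AP-1 motif TGANTCA (6.57%) matched in neither window. A match is a run of letters and not a measured site.

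The title of the series joins TAZ to miR-590-3p, so the 3 prime untranslated regions of the members were searched for the match to its seed. The mature microRNA (RefSeq, GRCh38.p14, chr7:74191253-74191273) is shown with the seed in capitals, followed by 1 site of each member with the match in capitals.
hsa-miR-590-3p: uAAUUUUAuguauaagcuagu
SOX4 site: aatatttgtctTAAAATTcaaggccacaa
SOX12 site: gactcatatttTAAAATTtctgtgggcca
SOX11 site: aaagactctaaTAAAATTgtgtgatcaat
The sites lie at chr6:21598449-21598477, chr20:329091-329119 and chr2:5701352-5701380 on GRCh38, all on the plus strand. SOX4 held 1 match in 2660 bases, SOX12 1 match in 3352 bases and SOX11 4 matches in 7338 bases. Per 1000 bases this is 0.376, 0.298 and 0.545, beside 0.291 over the untranslated regions of 19132 genes. Among genes whose region is within 20% of the same length, 44.7% held a match for the length of SOX4, 52.5% for SOX12 and 81.4% for SOX11. The match was present in all 3 members, as in many genes with regions of these lengths. Whether the microRNA acts on the members was not tested.

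Values are TPM, a level per transcript length stated as a share of the library, and scaled TPM is TPM divided by a factor per library that sets the typical gene equal. The libraries were checked first. WWTR1 ranged from 293 to 306 TPM with HA-TAZ and from 1.69 to 2.69 TPM without (log2 difference 6.80, SE 0.09, adjusted p = 1.14e-05 by limma with Benjamini-Hochberg adjustment). All 9 plasma cell markers were at 1 TPM or more, and their summed TPM was 2785 to 3217 in HA-TAZ and 4270 to 4825 in control libraries, most of it JCHAIN. CD38 fell and SLAMF7 rose among them (limma, adjusted p = 0.0226 and 0.0128), and 7 did not pass. Of all tested genes, 4.67% passed as higher and 2.63% as lower at an adjusted p-value under 0.05 by limma. The CD38 call was lost in 5 of the 6 fits that left out a library, all but that without control a (adjusted p up to 0.0881 by limma), and the SLAMF7 call without HA-TAZ 1 (0.0650) or control b (0.0576). The part of this marker difference in the results that follow was not tested. Of 5 T cell, 5 myeloid, 5 mature B cell, 5 epithelial, 5 fibroblast and 5 erythroid markers, 1, 1, 1, 2, 2 and 1 reached 1 TPM. None of the tested ones was called by limma. Their summed TPM with and without HA-TAZ was 1.52 to 1.53 and 2.39 to 2.52 for T cell, 1.74 to 1.93 and 1.91 to 2.25 for myeloid, and 8.62 to 9.34 and 9.02 to 10.49 for mature B cell markers. It was 2.78 to 3.90 and 4.99 to 6.08 for epithelial, 3.54 to 4.30 and 3.85 to 5.18 for fibroblast, and 8.74 to 15.1 and 8.34 to 21.2 for erythroid markers. The plasma cell, T cell and epithelial sums were lower with HA-TAZ without overlap, as were 43.6% of all tested genes in TPM as deposited. JCHAIN had a ratio of 0.648 in TPM as deposited and of 0.799 in scaled TPM. No marker was at 0 in all 6 libraries. Depth per library is unknown, since TPM carries none. With TPM as deposited the median gene was lower by 0.27 on the log2 scale in HA-TAZ libraries, and by 0.03 after scaling, so each member is given on both scales.

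SOX4 was the most abundant SOX gene in every library and was higher with HA-TAZ. In scaled TPM it was at 67.9, 65.3 and 61.4 in HA-TAZ 1, 2 and 3 and at 26.4, 28.0 and 26.9 in control a, b and c. The lowest HA-TAZ library lay far above the highest control, and neither group had a library apart from the others. The means were 64.9 ± 3.26 and 27.1 ± 0.818 scaled TPM (SD, n = 3 each), a ratio of 2.40. In TPM as deposited SOX4 was at 58.8, 63.1 and 54.7 in HA-TAZ and at 31.9, 30.5 and 28.4 in control libraries. The means of 58.9 ± 4.23 and 30.3 ± 1.73 TPM (SD, n = 3 each) gave a ratio of 1.95, so the size of the difference depended on the scale and its direction did not. On log2(scaled TPM + 1) the difference was 1.23 with a standard error of 0.05. HA-TAZ libraries were higher without overlap for 20.2% of all tested genes in scaled TPM and for 4.41% in TPM. Among 11666 protein-coding genes tested, SOX4 stood at rank 3240 by level in controls and at rank 1228 in HA-TAZ libraries, and its difference was the 40th highest.

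**Figure D1:**
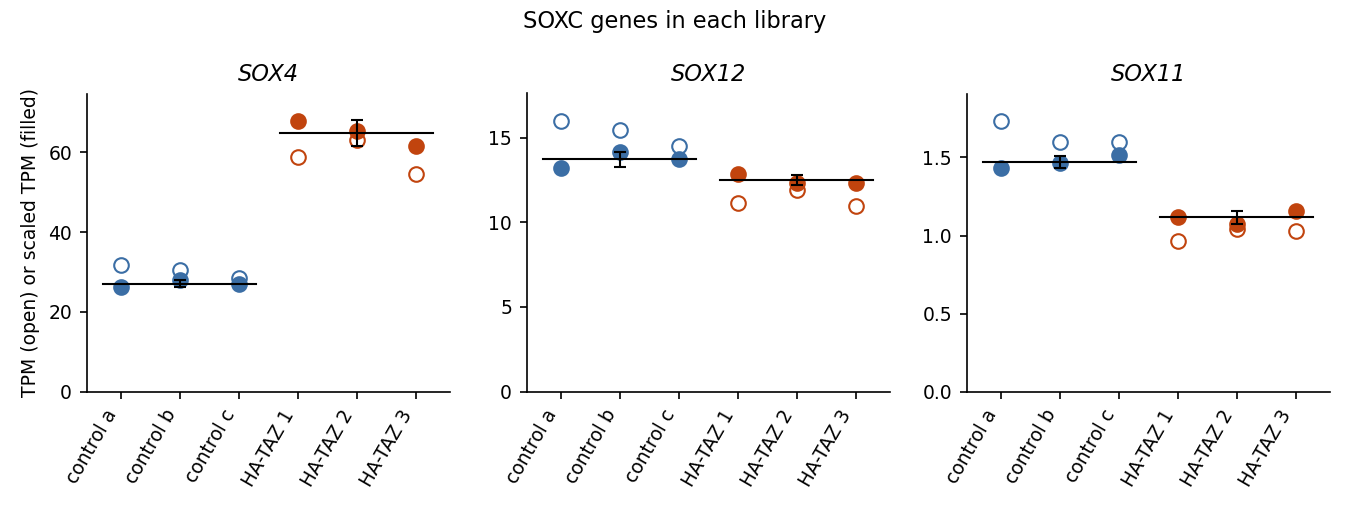
TPM as deposited (open circles) and scaled TPM (filled circles) of SOX4, SOX12 and SOX11 in each library, controls in blue and HA-TAZ in orange; lines and bars give the mean and SD of scaled TPM (n = 3 each), and each panel has its own axis from 0. SOX4 lies from 61.4 to 67.9 scaled TPM in HA-TAZ and from 26.4 to 28.0 in control libraries, while SOX12 and SOX11 lie slightly lower in HA-TAZ libraries.

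SOX12 was the second most abundant SOX gene and was slightly lower with HA-TAZ. It was at 12.9, 12.3 and 12.3 scaled TPM in HA-TAZ 1, 2 and 3 and at 13.2, 14.2 and 13.7 in control a, b and c. The groups did not overlap, but HA-TAZ 1 and control a nearly met. The means were 12.5 ± 0.311 and 13.7 ± 0.459 scaled TPM (SD, n = 3 each), a ratio of 0.912. In TPM as deposited the values were 11.13, 11.90 and 10.98 against 16.0, 15.4 and 14.5, a ratio of 0.740. The log2 difference was −0.12 with a standard error of 0.05, and −0.40 with TPM as deposited.

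SOX11 was near the lower limit of the tested levels and was also lower with HA-TAZ. It was at 1.12, 1.08 and 1.16 scaled TPM in HA-TAZ 1, 2 and 3 and at 1.44, 1.47 and 1.51 in control a, b and c. The groups did not overlap and each was narrow. The means were 1.12 ± 0.0409 and 1.47 ± 0.0393 scaled TPM (SD, n = 3 each), a ratio of 0.758. In TPM as deposited the means were 1.01 ± 0.0396 and 1.65 ± 0.0785 (SD, n = 3 each), a ratio of 0.615. The log2 difference of −0.22 (SE 0.09) understates the ratio, because the level is close to the pseudocount of 1. Both SOX11 and SOX12 were lower without overlap on each scale, as were 18.3% of all tested genes in scaled TPM and 43.6% in TPM as deposited.

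The makeup of the SOXC pool does not depend on the scaling, since all 3 genes of a library share its factor. SOX4 made up 82.9%, 83.0% and 82.0% of SOXC TPM in HA-TAZ 1, 2 and 3 and 64.2%, 64.2% and 63.8% in control a, b and c. The means were 82.6 ± 0.559% and 64.1 ± 0.235% (SD, n = 3 each), a difference of 18.6 percentage points. SOX12 made up 15.9 ± 0.456% and 32.4 ± 0.175%, and SOX11 1.42 ± 0.103% and 3.49 ± 0.113% (SD, n = 3 each). SOX4 exceeded SOX12 by a ratio of 5.28, 5.31 and 4.98 in the HA-TAZ libraries and of 1.99, 1.98 and 1.956 in the controls. The controls were nearly identical in this ratio, and no HA-TAZ library came near them. Summed over the 3 genes, the SOXC level was 71.2 ± 4.70 TPM with HA-TAZ and 47.2 ± 2.54 TPM without (SD, n = 3 each). The order of the levels was SOX4, SOX12, SOX11 in all 6 libraries.

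**Figure D2:**
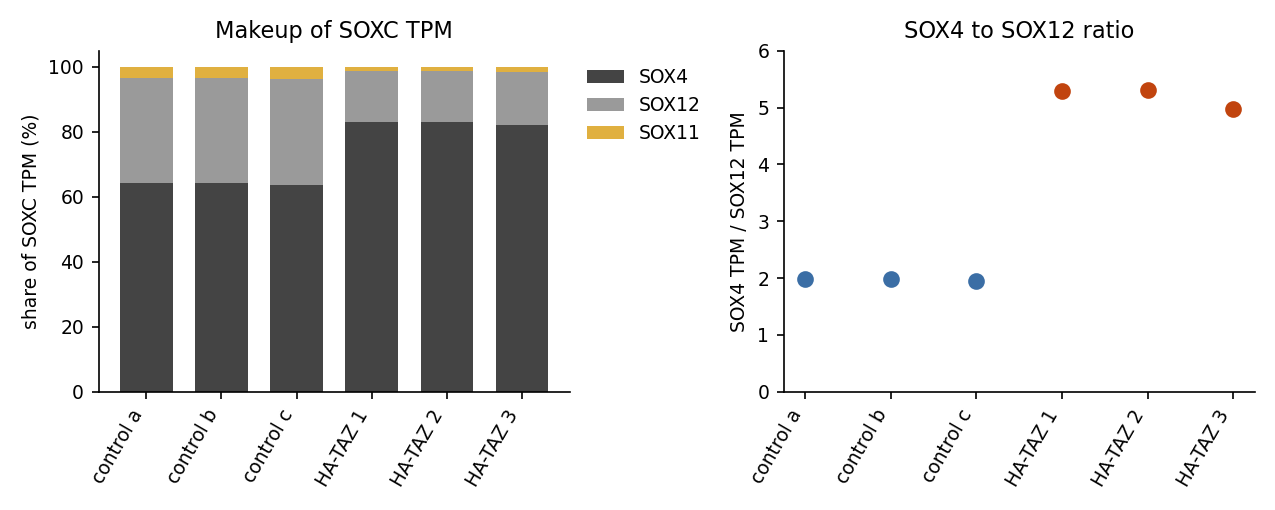
Left, the share of summed SOXC TPM (%) that each of the 3 genes takes in each library; right, the TPM of SOX4 divided by that of SOX12, controls in blue and HA-TAZ in orange. SOX4 takes 63.8% to 64.2% in controls and 82.0% to 83.0% in HA-TAZ libraries, and the ratio lies at 1.956 to 1.99 and at 4.98 to 5.31.

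At the level of transcripts, SOX4 and SOX11 were each carried by 1 transcript, and SOX12 was split over 2. The SOX4 transcript ENST00000244745.1 held all SOX4 signal, and ENST00000543472.1 was listed at 0 in all 6 libraries. ENST00000342665.2, the SOX12 transcript that GENCODE release 29 also holds, was at 4.42, 4.68 and 4.57 scaled TPM in HA-TAZ 1, 2 and 3 and at 6.78, 5.60 and 5.81 in control a, b and c. All HA-TAZ libraries lay below all controls, as for 18.3% of all tested genes, with a ratio of the means of 0.752. ENST00000544632.1, which that release does not hold, was at 8.44, 7.63 and 7.77 scaled TPM in HA-TAZ and at 6.46, 8.55 and 7.93 in control libraries. Here the groups overlapped and the ratio was 1.04. The first transcript took 34.4% to 38.0% of SOX12 TPM in HA-TAZ and 39.6% to 51.2% in control libraries, with control a the highest. In TPM as deposited the first transcript was at 3.83, 4.53 and 4.06 against 8.20, 6.11 and 6.14, and the second at 7.31, 7.37 and 6.91 against 7.81, 9.32 and 8.39. On that scale both transcripts were lower without overlap, as were 43.6% of all tested genes. The second had a ratio of 0.846, so its direction depended on the scale.

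**Figure D3:**
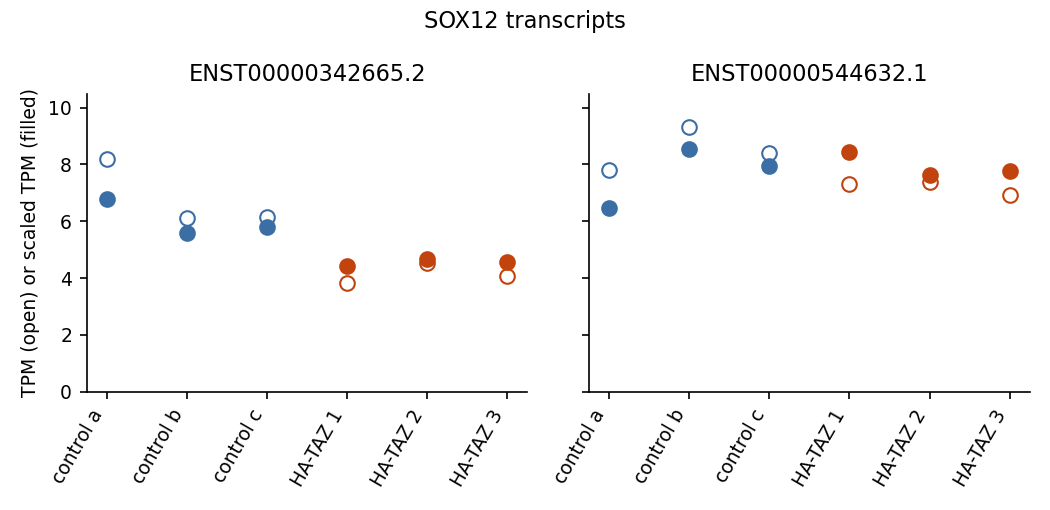
TPM as deposited (open circles) and scaled TPM (filled circles) of both SOX12 transcripts in each library, controls in blue and HA-TAZ in orange. ENST00000342665.2 lies from 4.42 to 4.68 scaled TPM in HA-TAZ and from 5.60 to 6.78 in control libraries, and ENST00000544632.1 overlaps between the groups in scaled TPM but not in TPM as deposited, where HA-TAZ is lower.

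The authors' deposited table gives effects as a natural log of estimated counts scaled between libraries, from which folds were computed here. In the authors' deposited table the effect for the SOX4 transcript was 0.893 (standard error 0.0448), a fold of 2.44. The effects in the authors' deposited table were −0.257 (standard error 0.0862) for SOX11, −0.263 (0.0744) for ENST00000342665.2 and 0.0623 (0.0851) for ENST00000544632.1, which are folds of 0.773, 0.769 and 1.06. These lay close to the ratios of scaled TPM. The means in the authors' deposited table correspond to about 13201 estimated counts per library for SOX4, 736 for SOX11, and 1565 and 1394 for the SOX12 transcripts. The technical variance listed in the authors' deposited table corresponds to an error of 0.879% for SOX4, 3.88% for SOX11, 4.18% for ENST00000342665.2 and 4.59% for ENST00000544632.1 in a library. This error covers quantification within a library and not the spread between libraries. Over gene sums, the spread between libraries relative to the mean of scaled TPM was largest for SOX4 in HA-TAZ and for SOX12 in controls. Single SOX12 transcripts spread more widely. In controls ENST00000342665.2 was at 6.06 ± 0.628 and ENST00000544632.1 at 7.65 ± 1.07 scaled TPM, beside 13.7 ± 0.459 for the gene (SD, n = 3 each). With HA-TAZ ENST00000544632.1 was at 7.94 ± 0.433 scaled TPM (SD, n = 3), relatively wider than SOX4.

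Of the 16 other SOX genes examined, 5 reached the tested level, and SOX9 was the 1 that changed. A gene is called here when its adjusted p-value is under 0.05 in the fit over 22651 genes, where 4.67% were called higher and 2.63% lower. SOX9, a SOXE factor of cartilage and of many epithelial progenitors, was at 5.70, 5.82 and 5.21 scaled TPM in HA-TAZ 1, 2 and 3 and at 1.73, 1.56 and 1.40 in control a, b and c. The groups lay far apart. The log2 difference was 1.36 (SE 0.10, limma, Benjamini-Hochberg adjusted p = 0.00466), and SOX9 was called in all 11 alternatives that tested it (adjusted p from 0.00382 to 0.0377 by limma). The filter at a mean of 5 TPM left it out. In TPM as deposited SOX9 was at 5.07 ± 0.511 and 1.76 ± 0.310 (SD, n = 3 each), still well below SOX4.

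The other tested SOX genes did not pass the threshold. SOX2, a SOXB1 factor of stem cells, was at 3.38 and 2.78 scaled TPM in HA-TAZ and control libraries (log2 difference 0.21, adjusted p = 0.164 by limma). The SOXD factors SOX5 and SOX6 had log2 differences of 0.11 and −0.05, and SOX15 of 0.11. The 11 remaining genes had a mean under 1 TPM, and SOX1, SOX3, SOX14 and SOX17 were listed at 0 in all 6 libraries.

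**Figure D4:**
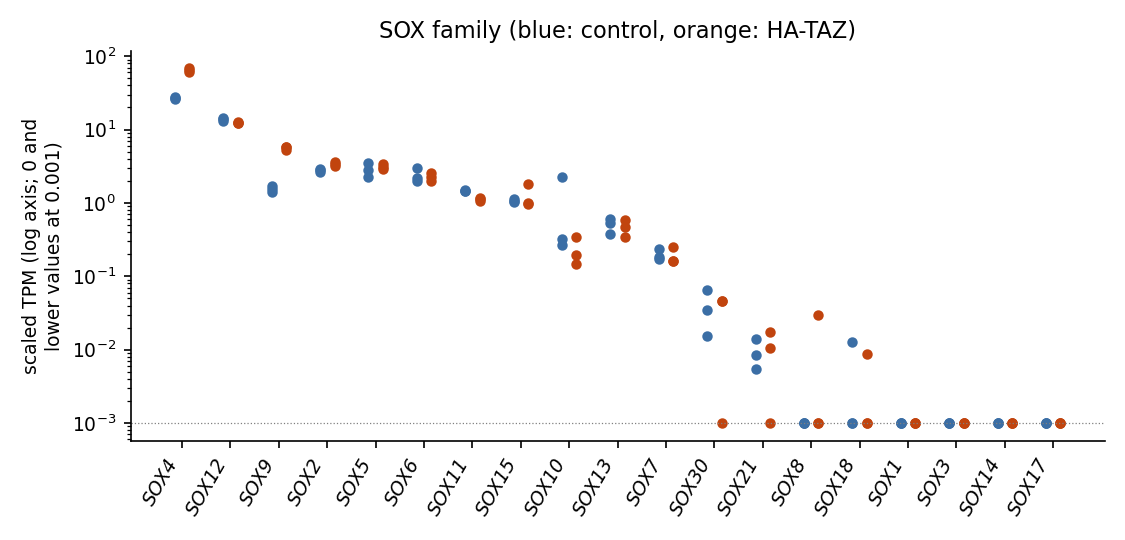
Scaled TPM of 19 SOX genes in each library on a log axis, controls in blue and HA-TAZ in orange, ordered by mean TPM; values at or under 0.001 are drawn at 0.001. SOX4 and SOX9 lie well above their controls with HA-TAZ, and 11 genes had a mean under 1 TPM.

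Among other genes with an HMG box, which include the WNT effectors of the TCF and LEF family and abundant chromatin proteins, 22 of 26 were tested. Of these, 1 was called higher and 0 lower, beside 4.67% and 2.63% of all genes, and their median log2 difference was 0.03 against −0.03 over all tested genes. The called gene was SSRP1, a subunit of the histone chaperone FACT, at 101 and 87.7 scaled TPM in HA-TAZ and control libraries (log2 difference 0.21, adjusted p = 0.0461 by limma). The call ended when any 1 library was left out, and the difference was −0.09 with TPM as deposited. HMGB1 and HMGB2, chromatin proteins that bend DNA, had log2 differences of 0.07 and 0.01. SMARCE1, a subunit of the BAF remodelling complex, and UBTF, a factor for ribosomal RNA genes, had differences of 0.03 and 0.20, and none of these 4 passed. HMGB3 has the same 6 values under 2 gene IDs and was counted 1 time.

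Of 18 genes listed as reported targets of SOX4 in other cells, 10 were tested. Of these, 2 were called higher and 0 lower, beside 4.67% and 2.63% of all tested genes. The median log2 difference of the 10 was 0.03, beside −0.03 over all tested genes, and 5 were above and 5 below 0. The first called gene was TUBB3, the neuronal beta-tubulin that SOXC factors activate in maturing neurons. It was at 22.6, 18.7 and 20.3 scaled TPM in HA-TAZ 1, 2 and 3 and at 7.32, 8.61 and 8.15 in control a, b and c, without overlap. The log2 difference was 1.25 (SE 0.09, limma, Benjamini-Hochberg adjusted p = 0.00572), close in size to that of SOX4, and the call held in all 12 alternatives (adjusted p from 0.00361 to 0.0394 by limma). A second gene ID with this symbol averaged 0.132 TPM with HA-TAZ and 0.369 TPM without, so little of the TUBB3 signal lay there.

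CSNK1E, a casein kinase of WNT and circadian signalling reported downstream of SOX4 in B cell progenitors, was the other called gene. It was at 31.03, 28.1 and 27.9 scaled TPM in HA-TAZ and at 17.6, 19.95 and 20.5 in control libraries, and the groups did not overlap. Its log2 difference was 0.56 (SE 0.08, limma, Benjamini-Hochberg adjusted p = 0.0235). The call was lost without HA-TAZ 1 (adjusted p = 0.0853 by limma), without HA-TAZ 2 (0.0790), without HA-TAZ 3 (0.0682) and without control b (0.0726). Of the abundant listed genes, the RNA helicase DHX9 had a log2 difference of 0.11, the histone methyltransferase EZH2 of −0.04, the Hedgehog receptor PTCH1 of −0.17 and the microRNA processing enzyme DICER1 of −0.10, and none passed. The recombinase genes RAG1 and RAG2, which SOX4 supports in B cell progenitors, were at 0.343 and 0.338 TPM (RAG1) and listed at 0 in all libraries (RAG2). TEAD2, another reported SOXC target, averaged 0.0215 TPM with HA-TAZ and 0.0368 TPM without.

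**Figure D5:**
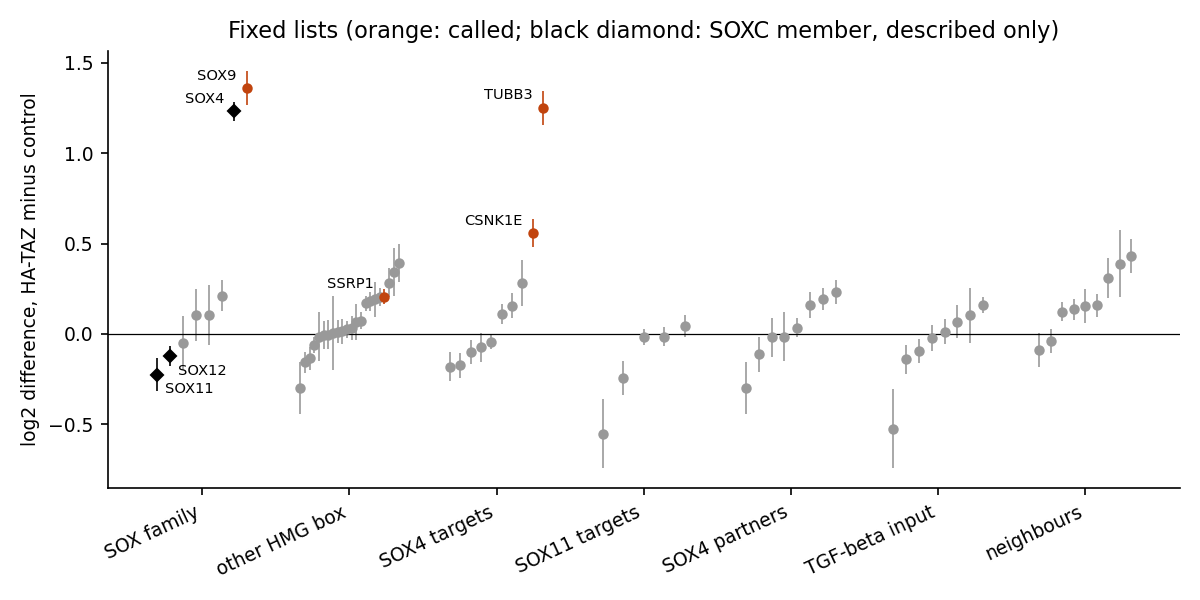
Log2 difference of scaled TPM + 1, HA-TAZ minus control, with its standard error from limma, for each tested gene of 7 lists (n = 3 libraries each). Orange points are called genes and black diamonds are SOXC members, which are described only; SOX9, TUBB3, CSNK1E and SSRP1 are the called genes.

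No gene was called in 4 lists around the members. At an unadjusted p-value under 0.05, limma found 16.6% of all tested genes higher and 14.1% lower, and counts at that level in lists of 5 to 9 genes are read as no result about the lists. Of 9 reported SOX11 targets in lymphoid cells, 5 were tested and 0 were called by limma, with 0 higher and 2 lower at an unadjusted p-value under 0.05. Those 2 were PTK2, the focal adhesion kinase, with a log2 difference of −0.55 (limma, adjusted p = 0.120), and PDGFA, a platelet-derived growth factor, with −0.24 (0.148), and PDGFA was named after its value was seen. PRDM1, the master factor of plasma cells, was at 95.4 and 96.5 scaled TPM in HA-TAZ and control libraries. MSI2, an RNA-binding protein of stem cells, had a difference of −0.01, and the homing receptor CXCR4 of 0.04. PAX5, a B cell identity factor that SOX11 activates in mantle cell lymphoma, was at 0.0205 and 0.0224 TPM and was not tested.

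Of 12 partners of SOX4, 8 were tested and 0 were called by limma. At an unadjusted p-value under 0.05, 2 were higher and 0 lower, beside 16.6% and 14.1% of all tested genes. The 2 were CTNNB1, which encodes beta-catenin, with a log2 difference of 0.23 (limma, adjusted p = 0.0862), and the acetyltransferase gene KAT5 with 0.19 (0.0984). The ubiquitin ligase gene MDM2 had a difference of −0.11. Of 12 genes of TGF-beta input, 8 were tested and 0 were called by limma. At an unadjusted p-value under 0.05, 1 was higher and 0 lower, beside the same shares of 16.6% and 14.1%. That gene was the signal transducer SMAD2 (log2 difference 0.16, adjusted p = 0.0760 by limma). The ligand TGFB1, the common transducer SMAD4 and the SMAD corepressor SKIL had differences of −0.02, −0.14 and −0.09. Of the 8, 4 were above and 4 below 0, the lowest being KLF5 at −0.52 (adjusted p = 0.172 by limma). TGFB2 lay under the tested level and averaged 0.410 TPM with HA-TAZ and 0.122 TPM without. KLF5 and TGFB2 were named after their values were seen.

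Genes near the members on the chromosome were examined next. Of 16 listed neighbours, 9 were tested and 0 were called by limma. At an unadjusted p-value under 0.05, 3 were higher and 0 lower, beside 16.6% and 14.1% of all tested genes. Those 3 lie beside SOX12 and were RBCK1, a subunit of the linear ubiquitin ligase (log2 difference 0.43, adjusted p = 0.0509 by limma), the pseudokinase gene TRIB3 (0.31, 0.132) and NRSN2 (0.16, 0.162). The median over the 9 was 0.15. CSNK2A1, a casein kinase subunit, had a difference of 0.12. CDKAL1, the 1 tested neighbour of SOX4, was at 15.7 and 14.2 scaled TPM (log2 difference 0.14, adjusted p = 0.172 by limma). The long non-coding RNA CASC15 had means of 0.630 and 0.863 TPM as deposited in HA-TAZ and control libraries. In scaled TPM its means were 0.695 and 0.768, and the groups overlapped. SOX4 was chosen because it was known to be higher, so its 1.23 beside the 0.14 of CDKAL1 is a description only. The other tested neighbours lie beside SOX12. NRSN2-AS1 is annotated across SOX12 on the opposite strand and was at 7.16 and 7.66 scaled TPM (log2 difference −0.09). Whether the authors' quantification used strand is not given in the sources used here, so reads of SOX12 and NRSN2-AS1 may not have been told apart. GENCODE release 29 also holds an antisense gene across SOX4, AL512380.2, which was not analysed here.

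The genes whose profile over the 6 libraries lay nearest to that of SOX4 were sought among 20062 tested genes, by the Euclidean distance between centred log2 values. The nearest were TMOD1, a cap of actin filaments (distance 0.0855), CD80, a costimulatory ligand of T cells (0.152), and TRIB1, a pseudokinase (0.160). HSPA6, a stress-induced chaperone (0.164), and P4HA2, a prolyl hydroxylase of collagen (0.186), followed, beside a median distance of 1.61 over all genes compared. TRIB1 was at 66.9, 67.5 and 64.9 scaled TPM in HA-TAZ and at 26.6, 25.5 and 26.5 in control libraries, which is nearly the level of SOX4 in each group. TMOD1 was at 3.97 and 1.08, CD80 at 2.93 and 0.675, HSPA6 at 21.0 and 8.10 and P4HA2 at 11.9 and 4.76 scaled TPM in HA-TAZ and control libraries. TMOD1 and CD80 lie close to the pseudocount of 1 in controls, so their nearness to SOX4 depends on it. Their ratios of scaled TPM were 3.67 and 4.33, beside 2.40 for SOX4, 2.54 for TRIB1, 2.59 for HSPA6 and 2.50 for P4HA2. With a pseudocount of 0.1 the log2 differences of TMOD1 and CD80 were 1.79 and 1.96, beside 1.26 for SOX4. All points come from the same 6 libraries and the difference between the groups makes up most of each profile, so nearness here is a description.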

How the data were processed

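Values came from 2 tables of the whole series. The authors deposited TPM for 215170 transcripts in 6 libraries; kallisto 0.46.0, sleuth 0.30.0 and GRCh37 are named in the submitters' processing notes. Per the file headers, the second table holds the authors' effects on a natural log scale, p-values and q-values (unused here for the members), and standard errors and variances of log values. TPM carries no depth, so precision was judged from the spread of 3 libraries. TPM was summed per Ensembl gene ID and divided by median-of-ratios factors. These were taken over 21512 genes above 0 in all libraries and with a mean of at least 1 TPM. Genes with a mean of at least 1 TPM were fitted with limma 3.58.1 (R 4.3.3, intensity trend, log2(scaled TPM + 1), two-sided, Benjamini-Hochberg adjustment over 22651 genes, threshold 0.05), after a test on simulated data. Alternatives were TPM as deposited, upper-quartile factors, a pseudocount of 0.1, other level filters, no trend and each library left out. The members and lists were chosen with earlier results of these data known. Named were the members, every called list gene, up to 4 further genes per list by highest mean TPM, and the 5 profiles nearest SOX4; other genes named are examples chosen after seeing values or for their position. Sequences came from RefSeq (GRCh38.p14) and GENCODE release 29. Tables were made in Python 3.11.15 with pandas 2.3.3 and numpy 2.4.6, and plots with matplotlib 3.10.9. No column of values was left out. Some genes that this rule names are not reported here.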

Additional observations from a re-analysis of the deposited data

How the results depend on the processing

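SOX4 was higher in HA-TAZ libraries under each alternative run, with a log2 difference of 0.94 with TPM as deposited and 1.205 to 1.27 leaving out a library. SOX12 was lower, at −0.40 with TPM as deposited (−0.15 to −0.10 leaving out a library), and so was SOX11, at −0.39 with TPM as deposited and −0.37 with a pseudocount of 0.1 (−0.24 to −0.21). The share of SOX4 in SOXC TPM differed by 18.4 to 18.9 percentage points leaving out a library. The 1652 called genes became 3329 with TPM as deposited (7.84% higher, against 64.0%), 691 without a filter on level (72.4% higher) and 758 without trend, and 118 to 470 leaving out a library, where fewer libraries entered. Of the lists, other SOX genes had 1 call without each library and 0 with the filter at 5 TPM, where SOX9 was not tested. Other HMG box genes had 0 calls with upper-quartile scaling, without a filter on level, without trend and in all 6 fits that left out a library, and 3 with the filter at 5 TPM (SSRP1, TFAM and UBTF, higher). With TPM as deposited they had 3 calls (HBP1, HMGB2 and KMT2C, lower), and SSRP1 turned from a log2 difference of 0.21 to −0.092. Reported SOX4 targets had 5 calls with TPM as deposited, with EZH2, PTCH1 and SEMA3C lower, and 1 to 2 leaving out a library. TGF-beta input had 1 call with TPM as deposited (SKIL, lower). Neighbours had 1 with TPM as deposited (NRSN2-AS1, lower) and 1 with the filter at 5 TPM (RBCK1, higher). SOX11 targets and SOX4 partners had 0 calls by limma in each alternative. Apart from the shift of all genes with TPM as deposited and the fewer genes or libraries of some fits, the cause was not tested. No paired analysis was possible because the control columns are named scr, which the labels never use, so no control number could be matched with a wild type sample.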

Other observations

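SOX10, a SOXE factor of the neural crest that lay below the tested level, was uneven among the controls. Control c had 2.41 TPM, while control a had 0.393 and control b 0.291 TPM. With HA-TAZ it had 0.126, 0.191 and 0.303 TPM. BCL6, the germinal centre repressor listed among SOX11 targets, was also below the tested level. It had 0.448, 0.706 and 0.485 TPM with HA-TAZ, and 0.196, 0.361 and 0.388 TPM without. SOX10 and BCL6 were picked out with their values in view, and neither was tested.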
